A study of Saccharomyces cerevisiae and Saccharomyces cerevisiae x Saccharomyces paradoxus and Saccharomyces cerevisiae x Saccharomyces mikatae with 18 samples.

Results

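The lysine pathway of budding yeasts was described through 9 genes, LYS1, LYS2, LYS4, LYS5, LYS9, LYS12, LYS14, LYS20 and LYS21, chosen by name as its enzymes, the activator of 1 enzyme and the pathway's own transcription factor. All 9 were among the 4730 genes listed in the deposited values. The study sequenced the 3′ ends of poly-adenylated transcripts from log-phase cultures in YPD, a rich medium, at 25°C. There were 6 libraries of hybrids, 2 for each of 3 crosses, and 12 libraries of diploids of a single species, called homozygotes here: 2 of S. paradoxus, 2 of S. mikatae, 2 of S. bayanus and 6 of S. cerevisiae. Reads of a hybrid were divided between its S. cerevisiae allele and the allele of the other species, the partner, which gave 24 libraries or alleles in all.

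The genotypes bear directly on these genes. Per the study's strain list, each hybrid came from the S. cerevisiae haploid BY4716, which carries the deletion lys2Δ0, so that the only intact LYS2 gene of a hybrid was that of the partner. The other parents were OZY361 (S. paradoxus, ade2 ura3), JRY9175 (S. mikatae, his3Δ) and JRY9191 (S. bayanus, his3 ura3), giving the hybrids YYM014, YYM030 and YYM015. The S. cerevisiae homozygote, YHL068, was itself a cross of BY4741 and BY4716. It was heterozygous for lys2Δ0, leu2Δ0, his3Δ1, met15Δ0 and ura3Δ0 and so held an intact and a deleted copy of LYS2. The S. paradoxus CBS 432, S. mikatae IFO 1815 and S. bayanus CBS 7001 homozygotes were wild type. Each group was thus 1 strain grown in separate cultures, and a difference between species and a difference between these strains cannot be told apart.

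Yeasts make lysine from 2-oxoglutarate and acetyl-CoA by the aminoadipate route. The isozymes Lys20 and Lys21 make homocitrate, Lys4 and Lys12 turn it into the precursor of aminoadipate, and Lys2 reduces aminoadipate to its semialdehyde, for which Lys2 must first receive its phosphopantetheine arm from Lys5. Lys9 and Lys1 complete the route through saccharopine, and Lys14 is an activator of these genes that responds to the semialdehyde, while Gcn4 is the general activator of amino acid synthesis genes.

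Short stretches before the S. cerevisiae genes are printed to show which members match a letter pattern taken here for each activator. A window of 300 bases was read for each gene, from 250 bases before the start codon to 50 bases from its first base onward. Both strands were searched for TCCNNNGGA, called the Lys14 element here, and TGACTC, called the Gcn4 element here. TCCNNNGGA leaves its middle bases free and is looser than a binding site. A match is a match of letters only, and binding was not tested. TCCNNNGGA was found before LYS12, LYS9, LYS1 and LYS14, which is 4 of 9 members, and in 3.40% of 6001 windows. TGACTC was found before LYS12, LYS2, LYS1 and LYS14, again 4 of 9, and in 7.98% of all windows. No match to either overlapped another, and the windows of LYS20, LYS21, LYS4 and LYS5 held neither set of letters. The sequences are from RefSeq, build R64, written 5′ to 3′ on the strand of the gene, which is the minus strand for all of those shown, and capitals mark the element.
LYS12, Lys14 element, chrIX:187798-187822: cactttttTCCCGTGGAaaaatatt
LYS9, distal Lys14 element, chrXIV:715597-715621: atcgaaatTCCGTTGGAaaaattcg
LYS9, proximal Lys14 element, chrXIV:715535-715559: tgagaattTCCAATGGAattatcag
LYS1, Lys14 element, chrIX:420916-420940: ttttttttTCCAGCGGAatttggaa
LYS14, upstream Lys14 element, chrIV:512309-512333: gaaaaattTCCTCAGGAatttcaaa
LYS2, Gcn4 element, chrII:474107-474128: ttcgcgtgTGACTCaatgtcga

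All values below are scaled scores. A deposited score is a number of reads on a gene after weighting for GC content, and scaled scores set each library or allele to a common upper quartile. Each transcript is counted at its end, so no division by length was made. The total score was 4760197 to 6883279 in homozygote libraries and 2255430 to 3336994 in single alleles, and replicates correlated across genes at 0.907 to 0.941 on the log2 scale, where genes are not independent replicates. Every group had n = 2, and groups of 2 often lie apart. Between S. bayanus alleles in the hybrid and S. bayanus homozygotes, 55.5% of 4492 genes had groups without overlap. A lack of overlap is therefore given below as a description and not as a test. Tests were limma's moderated tests on log2(scaled score + 1) over all genes, with a call at a Benjamini-Hochberg adjusted p under 0.05; log2 ratios and fold changes below are on this scale, which understates changes of low genes, and errors are SE. Differences in how many cells express a gene and in RNA per cell cannot be told apart in such cultures.

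LYS2 (YBR115C, chrII:469748-473926, minus strand, R64) showed the deletion. The deposited LYS2 scores of the S. cerevisiae alleles were 0 and 0 in the cross to S. paradoxus, 1 and 0 in the cross to S. mikatae and 0 and 1 in the cross to S. bayanus. In S. cerevisiae homozygotes the scaled scores were 121, 157, 134, 135, 180 and 135. The genotypes and the values thus went together in all 6 hybrid libraries and all 6 S. cerevisiae homozygote libraries. Of 3228 genes with a deposited score of at least 100 in all 6 S. cerevisiae homozygote libraries, 3 had at most 1 in every S. cerevisiae allele, namely LYS2, MEH1 and RHO4. LYS2 alone among the 3 had at least 50 in all 6 partner alleles, a criterion chosen after its values were seen. The listed genes on both sides of LYS2, namely CYC8, RAD16, TKL2 and TEF2, were measured in the S. cerevisiae alleles, with scaled scores of 14.1 for TKL2 at the lowest and 45000 for TEF2 at the highest.

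The intact partner LYS2 alleles were all measured in hybrids. S. mikatae LYS2 had 216 and 214 in the hybrid, against 313 and 295 in S. mikatae homozygotes, and the groups did not overlap. S. bayanus LYS2 had 82.8 and 120 in the hybrid, against 58.3 and 39.0 in homozygotes. S. paradoxus LYS2 had 94.9 and 75.6 in the hybrid, against 31.0 and 21.4 in homozygotes. The hybrid values were thus above the homozygote values in S. bayanus and S. paradoxus and below them in S. mikatae, with log2 ratios of 1.05 ± 0.378, 1.68 ± 0.444 and -0.50 ± 0.233, and none passed the test (adjusted p = 0.234, 0.447 and 0.694). In order of level, the 2 S. mikatae homozygotes were highest, followed by the S. mikatae allele and the S. cerevisiae homozygotes. The S. bayanus and S. paradoxus alleles overlapped each other below these, and the highest S. bayanus value, 120, lay next to the lowest S. cerevisiae homozygote, 121. The S. bayanus homozygotes and then the S. paradoxus homozygotes came last before the deleted alleles.

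**Figure D1:**
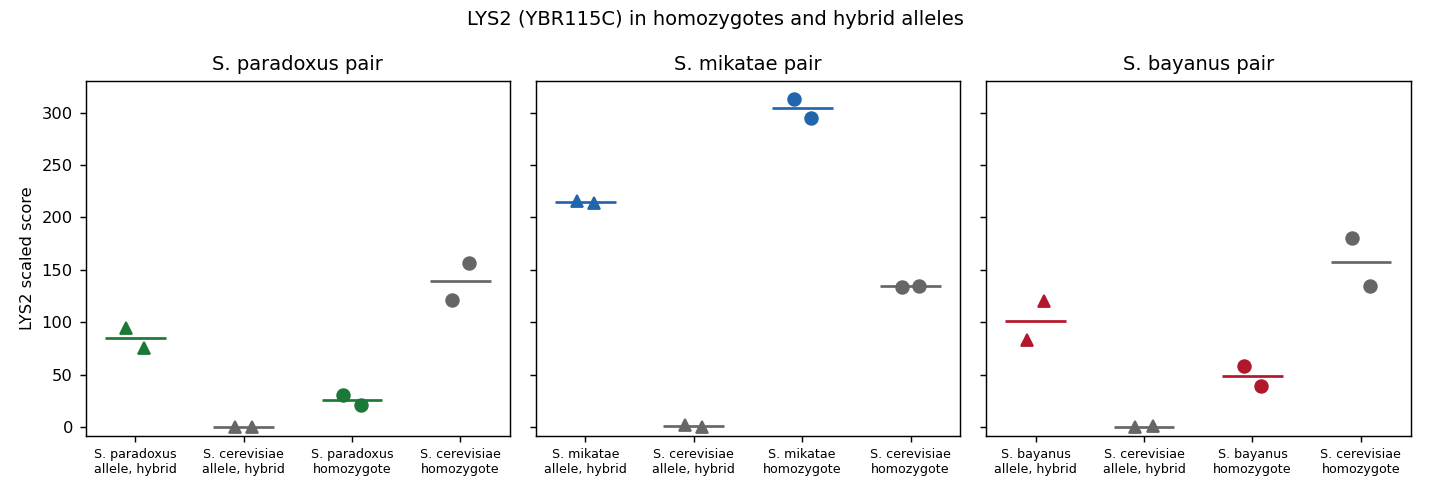
LYS2 scaled score (linear axis) in each library or allele, in 1 panel per species pair; circles are homozygotes, triangles are hybrid alleles, colours are the partner species, grey is S. cerevisiae, and lines are means of 2. The S. cerevisiae alleles sit at 0 to 1.87 in every hybrid, and the partner alleles between 75.6 and 216.

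Between homozygotes, LYS2 differed from S. cerevisiae in all 3 species and not in the same direction. It was 5.19-fold lower in S. paradoxus (log2 ratio -2.38 ± 0.392, adjusted p = 0.0304) and 3.22-fold lower in S. bayanus (-1.69 ± 0.363, 0.0342). It was higher in S. mikatae, at a log2 ratio of 1.17 ± 0.249 (0.0481). These comparisons set 2 intact copies in the partner species against the single intact copy of YHL068, and the copy number cannot be told apart from the species.

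Since the S. cerevisiae LYS2 allele is deleted in each hybrid, its allele ratio was bound to differ from the homozygote ratio, and the test is a check of the genotype. The difference, homozygote ratio minus allele ratio, passed the test in the S. paradoxus pair (log2 -8.80, adjusted p = 0.00805) and in the S. bayanus pair (-7.67, 0.0169), and missed it in the S. mikatae pair (-5.83, 0.0604). Its size depends on the constant added to values of 0: with 10 added in place of 1 it was -5.29, -4.87 and -3.25. LYS2 was the only member called in either pair, which is 1 of 9 in each, where 0.808% of 4582 genes passed in S. paradoxus and 1.84% of 4575 in S. bayanus; in S. mikatae 0 of 9 passed with limma and 2 had an unadjusted p under 0.05, where 0.109% and 14.0% of all genes did. Leaving out either hybrid library or either S. cerevisiae homozygote library took the S. paradoxus call away (adjusted p 0.0882 to 0.170), and in each of those 4 fits 0 of all genes passed. In the S. bayanus pair the call held without S. cerevisiae replicate 5 (0.0494), where 47 of 4568 genes passed, and was lost without any other library (0.0555 to 0.127), where 0 to 11 genes passed.

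LYS2 included, the homozygotes of S. paradoxus and S. bayanus had lower lysine gene levels than S. cerevisiae, and those of S. mikatae mostly did not. In S. paradoxus 5 of 9 members were called, all lower (LYS20, LYS12, LYS2, LYS9 and LYS1), where 19.9% of 4588 genes were called and 11.5% were called lower. In S. bayanus 8 of 9 were called, 7 lower and LYS5 higher, where 34.6% of 4576 genes were called and 16.3% were called lower. In S. mikatae 2 of 9 were called, LYS2 higher and LYS14 lower, where 19.6% of 4568 genes were. The median log2 ratio of the members was -2.0 in S. paradoxus, 0.52 in S. mikatae and -1.65 in S. bayanus, beside -0.20, -0.13 and 0.02 over all genes tested. Without LYS2, 4, 1 and 7 of 8 members were called, and the medians were -1.97, 0.05 and -1.63, with 4 members positive and 4 negative in S. mikatae. With 1 library left out, 0 members and 0 of all genes passed in S. paradoxus, in S. mikatae, and in S. bayanus without either of its own libraries. In S. bayanus 3 members passed without S. cerevisiae replicate 5 or 6, where 742 and 709 of 4560 genes did.

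**Figure D2:**
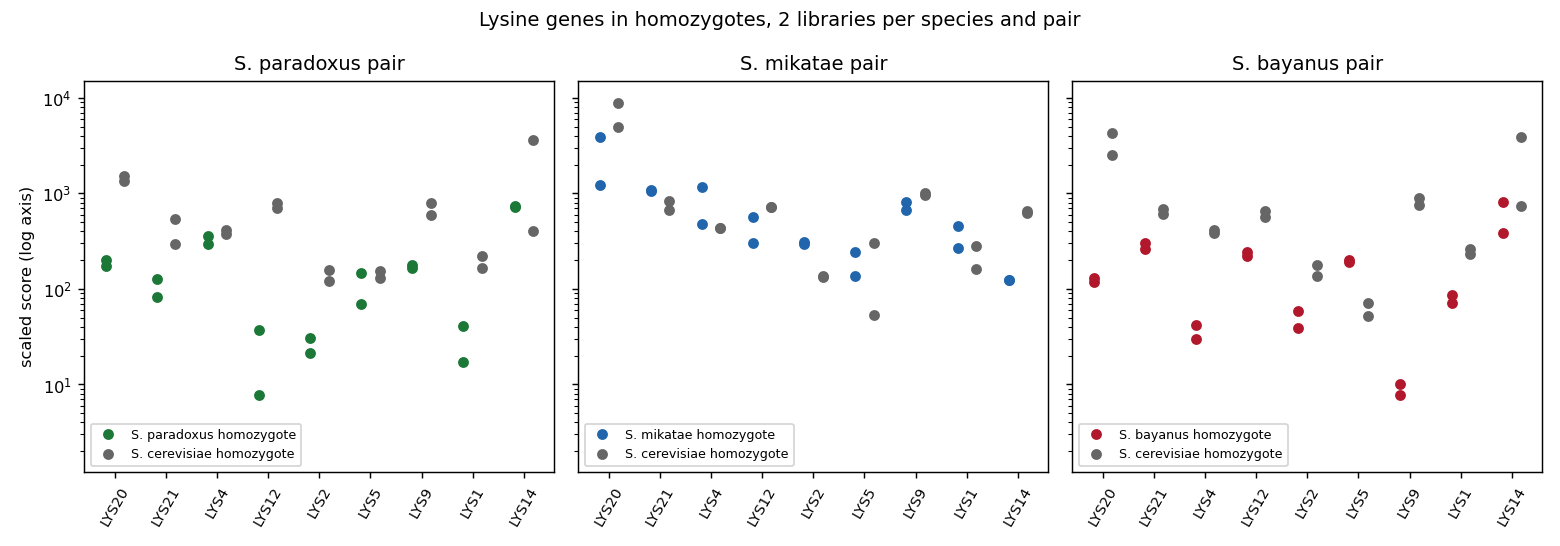
Scaled scores (log axis) of the 9 genes in partner homozygotes (coloured, left) and in the S. cerevisiae homozygotes of the same pair (grey, right), with 1 point per library. LYS9 of S. bayanus (10.1 and 7.79) and LYS12 of S. paradoxus (7.75 and 36.9) lie farthest below their S. cerevisiae libraries.

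In the first step, homocitrate synthesis, LYS20 (YDL182W) was lower than in S. cerevisiae in 2 of the 3 species. LYS20 had 201 and 174 in S. paradoxus homozygotes, against 1360 and 1510 in S. cerevisiae, and was 7.63-fold lower (log2 ratio -2.93 ± 0.264, adjusted p = 0.0219). It had 119 and 129 in S. bayanus homozygotes, against 4310 and 2540 in S. cerevisiae, and was 26.5-fold lower (-4.73 ± 0.335, 0.00995). Neither pair of groups overlapped. In S. mikatae LYS20 had 3890 and 1210, against 8850 and 4920 in S. cerevisiae. These groups did not overlap either, and the ratio of -1.60 ± 0.700 did not pass (0.178). LYS20 ranged from 1360 to 8850 over the 6 S. cerevisiae homozygotes, which are 1 strain. The size of each ratio thus depends on the S. cerevisiae libraries of its pair.

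In the hybrids, LYS20 was the 1 member other than LYS2 that was called between alleles of all 3 crosses. The S. paradoxus allele had 179 and 116 and the S. cerevisiae allele 3460 and 1360 (log2 ratio -3.91 ± 0.560, adjusted p = 0.0451). The S. mikatae allele had 1250 and 1350 and the S. cerevisiae allele 4000 and 3670 (-1.55 ± 0.233, 0.0328). The S. bayanus allele had 177 and 237 and the S. cerevisiae allele 6850 and 4200 (-4.70 ± 0.332, 0.0075). The partner allele was thus below the S. cerevisiae allele in 6 of 6 libraries. The difference between the homozygote and allele ratios of LYS20 was 0.97 ± 0.669 in S. paradoxus, -0.05 ± 0.806 in S. mikatae and -0.02 ± 0.507 in S. bayanus, none past the test (adjusted p 0.465 to 0.987). The alleles of a hybrid were read from the same library, and with the library as a block the S. paradoxus and S. mikatae calls of LYS20 were lost and that of S. bayanus was kept.

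LYS21 (YDL131W), the other isozyme, followed LYS20 only in part. It was 2.29-fold lower in S. bayanus homozygotes, at 305 and 261 against 609 and 691 in S. cerevisiae (adjusted p = 0.0258). In S. paradoxus it had 127 and 82.7, against 293 and 543 in S. cerevisiae, just outside the threshold (log2 ratio -1.95 ± 0.450, 0.0514). The S. mikatae homozygotes had 1080 and 1070, against 676 and 825 in S. cerevisiae (0.204). Between hybrid alleles LYS21 was called in no cross (adjusted p 0.200 to 0.604).

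The ratio of LYS20 to LYS21 did not overlap between S. bayanus and S. cerevisiae, while the ratios of S. paradoxus and S. mikatae overlapped both. In S. bayanus LYS21 exceeded LYS20: the ratio was 0.148 and 0.239 for the alleles in hybrids and 0.390 and 0.496 in homozygotes. The S. paradoxus ratio was 0.40 and 0.419 for the alleles and 1.59 and 2.11 in homozygotes, so that it lay on either side of 1. S. mikatae was spread widest, at 1.31 and 0.420 for the alleles and 3.62 and 1.14 in homozygotes. In S. cerevisiae LYS20 exceeded LYS21 throughout, with ratios of 2.08 to 6.74 for the 6 alleles and 2.79 to 13.1 in the 6 homozygotes. All 12 partner values other than 1 S. mikatae homozygote were below every S. cerevisiae homozygote, the exception being 3.62. These ratios are a description with no test of their own. Only reads with a single position in the genomes were counted. In S. cerevisiae R64 the coding sequences were 91.4% identical over 1281 aligned bases, with a longest shared run of 278 bases. The last 300 coding bases were 76.2% identical, with a longest shared run of 48 bases. The 500 bases after the stop codon were 51.5% identical, with no shared run over 9 bases. The partner genomes were not compared in this way, and the effect of shared runs on the ratios was not tested.

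**Figure D3:**
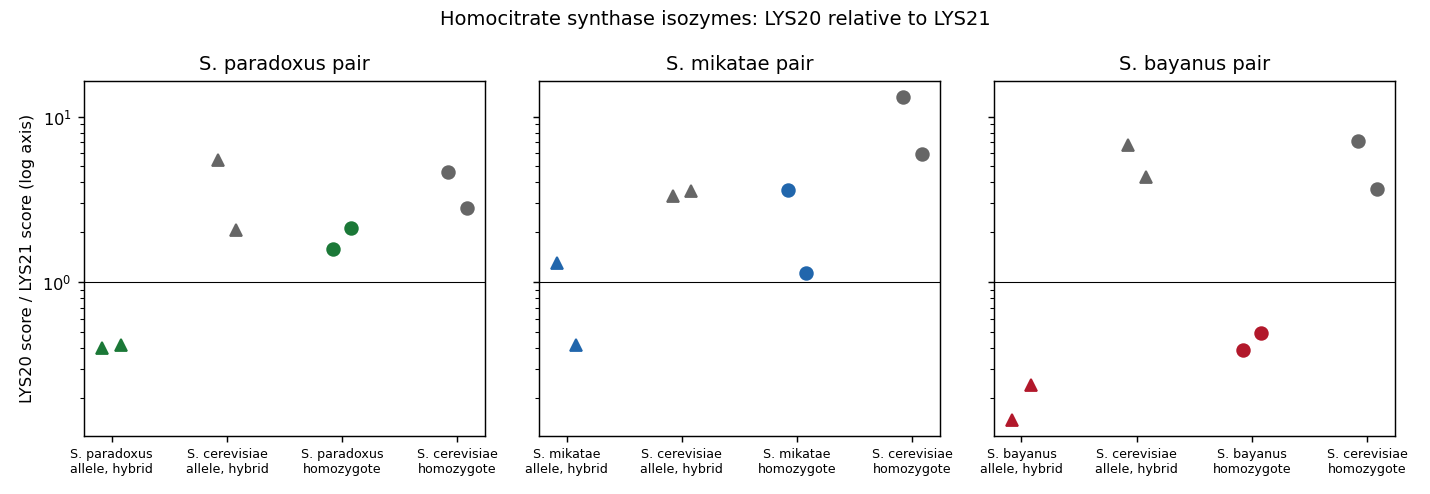
LYS20 score divided by LYS21 score (log axis) in each library or allele; circles are homozygotes, triangles are hybrid alleles, grey is S. cerevisiae, and the line marks equal scores. The S. cerevisiae points lie between 2.08 and 13.1, and the S. bayanus points between 0.148 and 0.496.

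The middle steps differed by species and by gene. LYS4 (YDR234W), homoaconitase, was 11.0-fold lower in S. bayanus homozygotes, with 41.8 and 29.6 against 412 and 385 in S. cerevisiae (log2 ratio -3.46 ± 0.303, adjusted p = 0.00995). Its S. bayanus allele had 78.4 and 120, against 740 and 1890 for the S. cerevisiae allele (-3.59 ± 0.563, 0.0194). Neither comparison overlapped, and LYS4 was not called in the S. paradoxus or S. mikatae pairs (adjusted p 0.259 to 0.497).

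LYS12 (YIL094C), homoisocitrate dehydrogenase, was lowest in S. paradoxus. It had 7.75 and 36.9 in S. paradoxus homozygotes, against 708 and 795 in S. cerevisiae, and was 41.2-fold lower (log2 ratio -5.37 ± 0.776, adjusted p = 0.0258). Its S. paradoxus allele had 59.1 and 50, against 545 and 503 for the S. cerevisiae allele, 9.47-fold lower (-3.24 ± 0.299, 0.0362). In S. bayanus LYS12 was 2.64-fold lower between homozygotes (0.0183) and 2.05-fold lower between alleles (0.0399). The homozygote and allele ratios of S. paradoxus differed by -2.12 ± 0.905, which did not pass (0.252), and the 2 S. paradoxus homozygotes differed from each other by 2.12 on the log2 scale, the widest of the 9 members there.

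LYS5 (YGL154C), which activates Lys2, was the 1 member higher in S. bayanus homozygotes than in S. cerevisiae. It had 193 and 199, against 71.4 and 52.1 in S. cerevisiae (log2 ratio 1.67 ± 0.298, adjusted p = 0.0233). With all 6 S. cerevisiae homozygotes as the comparison the ratio was 0.92 and no longer passed, and the S. cerevisiae libraries of the other pairs had 53.7 to 300. LYS5 was called between alleles in no hybrid (adjusted p 0.322 to 0.697).

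The last steps showed the widest species difference. LYS9 (YNR050C), the first saccharopine dehydrogenase step, had 10.1 and 7.79 in S. bayanus homozygotes, against 754 and 904 in S. cerevisiae, and was 83.6-fold lower (log2 ratio -6.38 ± 0.305, adjusted p = 0.0092). Its S. bayanus allele had 20.7 and 14.6, against 1240 and 1580 for the S. cerevisiae allele, 76.1-fold lower (-6.25 ± 0.290, 0.00697). The 2 ratios differed by -0.14 ± 0.420 (0.904). The S. bayanus values rest on deposited scores of 16 and 10 in homozygotes and 14 and 9 in the hybrid. Whether reads of LYS9 were missed when mapped or counted in the S. bayanus genome was not tested. In S. paradoxus LYS9 was lower between homozygotes, with 164 and 176 against 588 and 786 in S. cerevisiae (-2.0 ± 0.293, 0.0263). Its alleles there had 923 and 327 in S. paradoxus and 543 and 414 in S. cerevisiae, and overlapped (0.837). The difference between these ratios, -2.21 ± 0.704, did not pass (0.162). In S. mikatae LYS9 was called between alleles, with 505 and 477 against 1210 and 1070 for the S. cerevisiae allele (-1.21 ± 0.232, 0.0448), and not between homozygotes (0.287).

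LYS1 (YIR034C), which releases lysine from saccharopine, was 6.94-fold lower in S. paradoxus homozygotes, with 17.2 and 41.4 against 165 and 223 in S. cerevisiae (log2 ratio -2.80 ± 0.539, adjusted p = 0.0387). It was 3.14-fold lower in S. bayanus homozygotes, with 85.5 and 70.9 against 233 and 261 in S. cerevisiae (0.0186). Between hybrid alleles LYS1 passed in no cross. The S. paradoxus allele had 28.7 and 22.0 and the S. cerevisiae allele 93.7 and 201, which did not overlap (-2.41 ± 0.521, 0.0748).

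LYS14 (YDR034C), the activator, was the least even member between replicates. The 6 S. cerevisiae homozygotes had 405, 3640, 625, 658, 736 and 3930, so that replicates 2 and 6 stood far above the other 4. LYS14 was called in 1 comparison: S. mikatae homozygotes had 125 and 123, against 625 and 658 in S. cerevisiae, 5.13-fold lower (log2 ratio -2.36 ± 0.241, adjusted p = 0.0191). In S. paradoxus homozygotes it had 744 and 726, and the log2 ratio of -0.72 (0.664) turned to 0.86 without S. cerevisiae replicate 2. LYS14 lies on chromosome IV beside MRH1, which is read towards it with 627 bases between the coding sequences. MRH1 had 4640, 23000, 13600, 8050, 4000 and 12500 in the same 6 libraries, and its part in the LYS14 values was not tested.

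**Figure D4:**
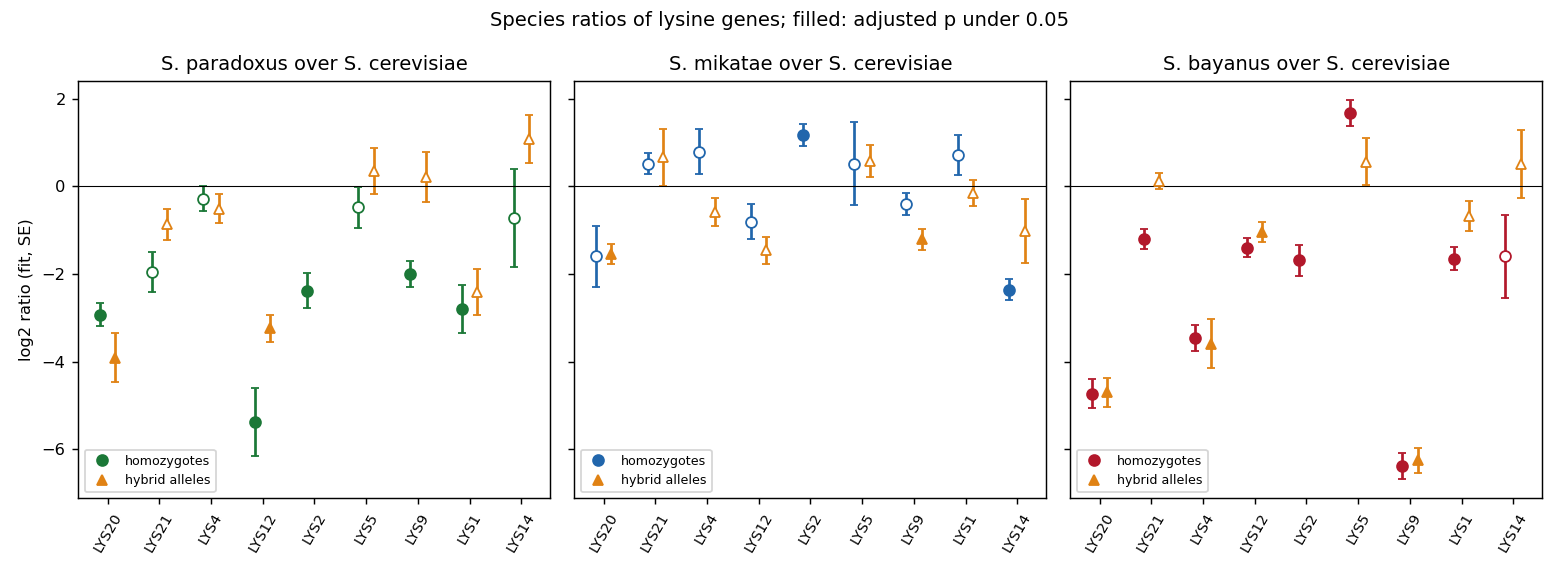
Fitted log2 ratios (± SE) of partner species over S. cerevisiae for the 9 genes, between homozygotes (circles) and between hybrid alleles (triangles); filled symbols have an adjusted p under 0.05, and LYS2 is shown for homozygotes only, since its S. cerevisiae allele is deleted. In S. bayanus the LYS20, LYS4 and LYS9 ratios of the alleles (-4.70, -3.59 and -6.25) lie beside those of the homozygotes (-4.73, -3.46 and -6.38).

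Between hybrid alleles the members called, LYS2 included, were 3 of 9 in S. paradoxus (LYS20 and LYS12 lower), 3 of 9 in S. mikatae (LYS20 and LYS9 lower) and 5 of 9 in S. bayanus (LYS20, LYS4, LYS12 and LYS9 lower). LYS2 was higher in each, against the deleted allele. Over all genes 5.03% of 4509, 15.8% of 4537 and 35.4% of 4533 were called. Without LYS2, whose direction the deletion fixed in advance, 2, 2 and 4 of 8 members were called. The median log2 ratio of these 8 was -0.69, -0.80 and -0.86, beside 0.01, -0.04 and 0.04 over all genes. With the library as a block, 0 of 9 members passed in S. paradoxus or S. mikatae, as did 0 of all genes tested there, while 1187 and 1533 genes had an unadjusted p under 0.05. Without either hybrid library, 0 members and 0 of all genes passed in those pairs. In S. bayanus 4 of 9 passed with the block, LYS12 being lost.

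Each genome's lysine genes were also compared between hybrid and homozygote, relative to the upper quartile of the same genome; these comparisons share their libraries with those above. In the S. bayanus hybrid 8 of 9 S. bayanus members had a positive log2 ratio, with a median of 1.01 beside -0.02 over all genes, and all 9 groups were without overlap, where 55.5% of genes were. None passed the limma test, where 1.05% of 4492 genes did, and 4 had an unadjusted p under 0.05, where 21.4% of genes did. LYS21 came nearest, with 1200 and 991 in the hybrid against 305 and 261 in homozygotes (log2 ratio 1.95 ± 0.203, adjusted p = 0.0563). LYS12 had 491 and 507, against 219 and 241 in homozygotes (1.12 ± 0.177, 0.0904).

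For the S. cerevisiae alleles of the same hybrid, without LYS2, 7 of 8 members had a positive log2 ratio over S. cerevisiae homozygotes, with a median of 0.73 beside 0.00 over all genes, and 4 of 8 groups were without overlap, where 51.1% of genes were. The 7 other genes tied to lysine that are described below had 6 positive ratios and a median of 0.58 in this comparison. None of the 9 members passed, LYS2 included, where 0.133% of 4526 genes did, and 5 had an unadjusted p under 0.05, where 18.2% of genes did. LYS4 had 740 and 1890, against 412 and 385 in homozygotes (1.57 ± 0.519, 0.256). LYS9 had 1240 and 1580, against 754 and 904 in homozygotes (0.76 ± 0.237, 0.241).

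In the other hybrids, 6 of 9 S. paradoxus members and 3 of 9 S. mikatae members had a positive log2 ratio. Their medians were 0.31 and -0.36, beside 0.06 and 0.07 over all genes. Without LYS2, 3 of 8 S. cerevisiae alleles in the cross to S. paradoxus and 6 of 8 in the cross to S. mikatae had a positive log2 ratio. Their medians were -0.50 and 0.25, beside -0.16 and -0.04 over all genes. Whether these ratios differ between hybrids was not tested. S. paradoxus members were called 0 of 9 times between hybrid and homozygote, with 3 at an unadjusted p under 0.05, where 0.133% and 7.43% of 4496 genes were; the 3 were LYS21, LYS2 and LYS9, with log2 ratios of 1.77, 1.68 and 1.69. S. mikatae members were called 0 of 9 times, with 0 at an unadjusted p under 0.05, where 0% and 8.19% of 4492 genes were. Of the S. cerevisiae alleles, 1 of 9 was called in the S. paradoxus hybrid, the deleted LYS2 (adjusted p = 0.0233), where 7.53% of 4557 genes were called. That call was lost without any 1 of the 4 libraries (0.0891 to 0.170), where 0 of all genes passed. In the S. mikatae hybrid 0 of 9 were called and 2 had an unadjusted p under 0.05, LYS2 and LYS4, where 0.576% and 16.1% of 4516 genes were. LYS2 missed the threshold in the S. mikatae and S. bayanus hybrids (0.0787 and 0.0755) although both alleles there were at a deposited score of 0 or 1.

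**Figure D5:**
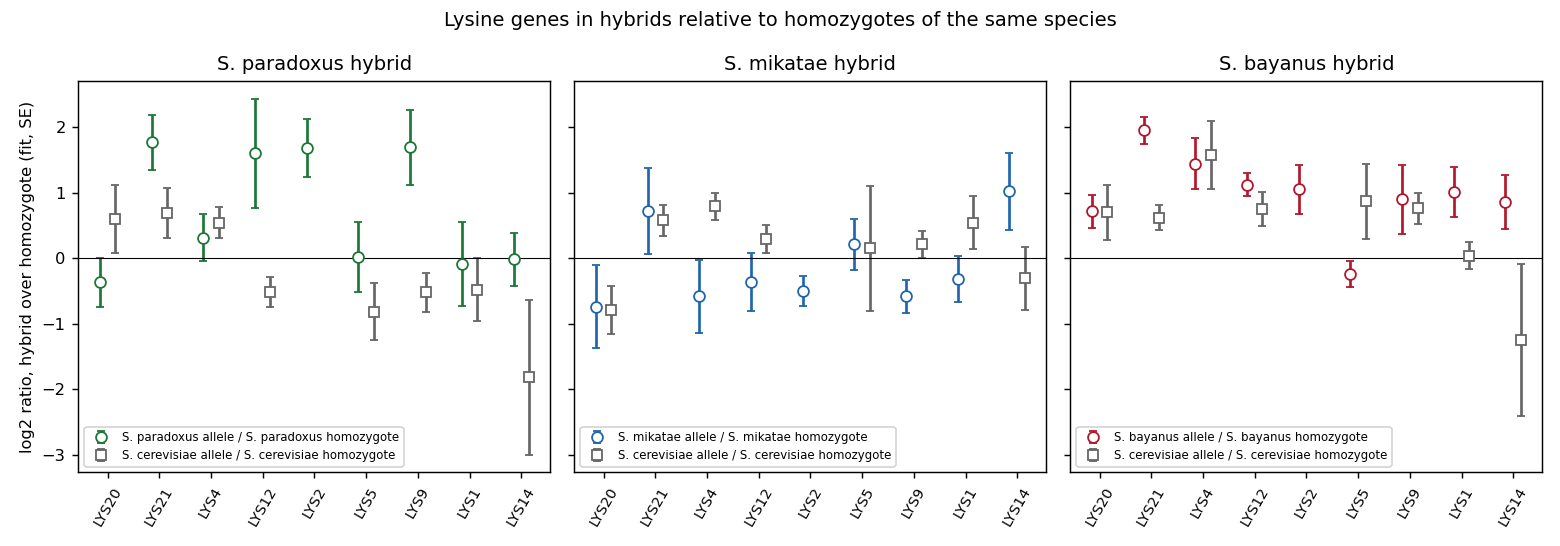
Fitted log2 ratios (± SE) of hybrid over homozygote for the partner genome (coloured circles) and for the S. cerevisiae genome (grey squares); open symbols did not pass the test, and the deleted S. cerevisiae LYS2 is left out. In the S. bayanus hybrid the median over members is 1.01 for S. bayanus and, without LYS2, 0.73 for S. cerevisiae.

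Other genes tied to lysine were read from a list of 8, of which 7 were listed in the files and KRS1 was not analysed here. MSK1, the mitochondrial lysyl-tRNA synthetase, was lower in S. paradoxus and S. mikatae both between homozygotes (log2 ratios -2.80 and -1.32) and between alleles (-3.31 and -1.48), and in S. bayanus between alleles (-1.37). The mitochondrial carriers ODC1 and ODC2, which export 2-oxoadipate, were higher in S. mikatae homozygotes (1.41 and 1.23). Neither was called between alleles there, where ODC1 was higher in S. mikatae and ODC2 lower, at 1020 and 869 against 2480 and 1030 in S. cerevisiae. GCN4 was lower in S. bayanus between alleles (-2.56). It was not called between homozygotes, with 1430 and 27000 in S. bayanus against 9020 and 2790 in S. cerevisiae. ARO8, an aminotransferase, MKS1, a regulator, and the lysine permease LYP1 were called in none of these 6 comparisons. Of the 7, the number called was 1, 3 and 0 genes between homozygotes (S. paradoxus first, then S. mikatae and S. bayanus), and 1, 1 and 2 between alleles, beside 19.9%, 19.6% and 34.6% and then 5.03%, 15.8% and 35.4% of all genes. The median log2 ratios were -0.07, 0.32 and 0.20 between homozygotes and 0.04, 0.28 and -0.39 between alleles, beside -0.20, -0.13 and 0.02 and then 0.01, -0.04 and 0.04 over all genes.

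The members did not move as a unit across the 24 libraries or alleles. Pearson's r of log2 scaled scores, a description over points that share libraries and species, was highest for LYS4 with LYS9 (0.92) and for LYS12 with LYS1 (0.87). LYS20 had 0.77 with LYS9, 0.75 with LYS1 and 0.72 with LYS12. The lowest was LYS5 with LYS14 (-0.32). Of 3684 genes with a mean scaled score of at least 100 over the 24, those most like the mean of the 8 members other than LYS2 were VPS4 (0.92), GNP1 (0.92) and EEB1 (0.91).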

How the data were processed

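The members, gene lists and tests were chosen with earlier results of these data known. As deposited by the authors, the values are scores: reads were base-called with CASAVA 1.7 and mapped with Bowtie 0.12.7 to both genomes of a pair, unique hits kept, weighted for GC content and added up per gene on its strand from 50 bases before to 500 bases after the coding sequence, then rounded. They are not scaled between libraries, and since reads were weighted, counting intervals and count models were not used. Coordinates are not part of the deposited tables, and their build number is not given in the sources used here; gene positions and sequences were read from RefSeq R64.

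Each library or allele was brought to a common upper quartile of its scores. Genes with a mean scaled score of at least 10 in a fit were tested as log2(scaled score + 1) with limma 3.58.1 (intensity trend) in R 4.3.3, tested on simulated data first, with Benjamini-Hochberg adjustment over all genes. The labels do not pair S. cerevisiae homozygotes with a species, so the 2 libraries counted against the same genome pair were used, and all 6 were an alternative. Replicates are separate cultures per the study's methods. The alleles of a hybrid share a library, and their replicate differences correlated across 4611 genes at 0.061 (S. paradoxus), 0.015 (S. mikatae) and 0.030 (S. bayanus). All members, the list of other lysine genes (1 of which is not reported here), 2 listed genes on each side of LYS2, and the 3 genes most like the members were named, and the strains' marker loci were checked without being described. Alternatives were 2 other scalings, another added constant, other minimum scores, 1 fit of 4 groups, 1 scaling factor for both alleles, the library or replicate block, and each library left out. Python 3.11.15, NumPy 2.4.6, pandas 2.3.3 and Matplotlib 3.10.9 were used for tables and figures.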

Additional observations from a re-analysis of the deposited data

Results flagged for a closer look

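The LYS2 species ratio differed between homozygotes and hybrid alleles in 2 pairs by a test of that difference, as the deletion in the hybrids requires. With 1 added to the scaled scores, the log2 homozygote ratio minus the allele ratio was -8.80 in the S. paradoxus pair (adjusted p = 0.00805, limma) and -7.67 in the S. bayanus pair (0.0169). With 10 added it was -5.29 and -4.87, so these sizes are set by the constant and are not estimates of a fold change. The S. cerevisiae alleles in these 4 hybrid libraries had deposited scores of 0, 0, 0 and 1. No other member passed this test in any pair.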

How the results depend on the processing

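No member ratio that passed in any fit changed sign under an alternative: of 420 refitted values of these ratios, 304 kept their side of the threshold, 99 lost it and 17 gained it, while 66 of 1133 values of ratios that passed in no fit changed sign. Between homozygotes, the members called were 5 in S. paradoxus, 2 in S. mikatae and 8 in S. bayanus. With the replicate number as a block, which marks no shared source there, S. paradoxus had 3. S. mikatae had 1 with total score scaling, with no minimum score and in 1 fit of 4 groups, where LYS2 was lost. Without 1 library, the counts were 0 in S. paradoxus, 0 in S. mikatae and 0 to 3 in S. bayanus, and over all genes 0, 0 and 0 to 742. Between alleles, the library block left 0 of 3 in S. paradoxus and 0 of 3 in S. mikatae, as did leaving out either library, with 0 of all genes called in these fits, and S. bayanus kept 4 or 5 of 5 throughout. For the difference of ratios, leaving out 1 library gave 0 to 1 in S. paradoxus and 0 to 1 in S. bayanus, where 0 to 22 and 0 to 47 of all genes passed. S. mikatae, with 0, had 1 with total score scaling, with a constant of 10 and with all 6 S. cerevisiae homozygotes, each time LYS2. For hybrid over homozygote, S. bayanus alleles had 1 (LYS21) in 1 fit of 4 groups and 0 otherwise. The S. cerevisiae allele in the S. paradoxus hybrid had 0 in place of 1 with the replicate block and 0 without any 1 library. In the S. mikatae and S. bayanus hybrids it had 1 with a constant of 10 and 1 in 1 fit of 4 groups, and 2 with all 6 homozygotes (LYS2 and LYS4), in place of 0. Total score scaling moved the median log2 ratio of all genes between homozygotes to -0.46 in S. paradoxus and -0.47 in S. mikatae, in place of -0.20 and -0.13. The causes of these changes were not tested. Fits that leave a library out have fewer samples, and with 1 library left in a group, its spread was taken from the other groups. The block changed no other count of members by over 1.5 times. Scaled scores under 40 limit the precision, as do the 2 libraries of each group. Such low values occurred for LYS9, LYS4 and LYS2 in S. bayanus and for LYS12, LYS2 and LYS1 in S. paradoxus.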
